A study of Mus musculus with 34 samples.

Results

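CpG islands of voltage-gated ion channel genes were followed over 34 arrays of mouse DNA. The members were the autosomal probes whose gene name on the array begins with Kcn (potassium channels), Cacn (calcium channels), Hcn (pacemaker channels) or Scn with a number and a or b (sodium channels), without Kcnq1 and Kcnq1ot1. There were 895 such probes among 97209 with a position. Neighbouring probes at most 500 bases apart were joined to islands, and an island with at least 3 probes was scored, which gave 120 ion channel islands of 84 genes among 13620 islands in all. A further 19 ion channel islands had too few probes and were not scored, so that of the 90 genes with a probe some, such as Kcnj11 and Scn4a, carry no value. No island carries the names Cacna1d, Cacna1c, Kcnj2 or Scn1a. Where a gene had several islands they are numbered along the chromosome, and islands of one gene are not independent of each other.

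The study asked whether ES cells that are differentiated in culture carry methylation at CpG islands that normal tissues lack. DNA fragments were precipitated with an antibody against 5-methylcytidine (mDIP) and hybridised in Cy5 together with input DNA in Cy3. The methods name C57Bl/6 as the strain of all mouse DNA. There were 16 arrays of adult tissue, all from animals of 3 months (colon, pancreas, brain, kidney, liver, lung, muscle and spleen, 2 arrays each, the sexes mixed), and 5 arrays of embryos of 8.5, 9.5, 10.5, 11.5 and 12.5 days post coitum (dpc). From undifferentiated ES cells there was 1 array for each of 3 lines, EB5, J1 and TT2. The 5 arrays of ES cells differentiated in vitro were embryoid bodies from TT2, retinoic acid-treated cells (TT2 by the label, J1 by the methods), 2 of endoderm and 1 of mesoderm, both sorted from an EB5 derivative with reporter genes after Activin A. Teratomas gave 2 arrays (line J1 by the label, D3 and C4 by the methods) from tumours grown under the skin of NOD-SCID mice, so that host tissue may be included. Purified β cells, the β-cell line Min6 and the α-cell line aTC gave 1 array each. The β cells were sorted with antibodies against insulin from islets of transgenic Pdx1-GFP mice of differing ages, as the supplement has it. Only tissue, endoderm and teratoma arrays carry replicate numbers, and where nothing says that samples came from separate animals or cultures, the spread between arrays may be technical.

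Voltage-gated channels open a pore for potassium, calcium or sodium ions when the membrane potential changes. Sodium channels carry the upstroke of the action potential, potassium channels end it, calcium channels couple it to secretion, contraction and transcription, and pacemaker channels drive rhythmic firing. Pore-forming subunits work together with auxiliary subunits that set their gating and their number at the membrane. The name families used here also hold inward rectifier (Kcnj) and two-pore domain (Kcnk) potassium channels, which have no voltage sensor and set the resting potential. Most of these genes are active in neurons, muscle and endocrine cells and silent elsewhere, and many start in a CpG island. Such islands are as a rule free of methylation in all tissues, whether the gene is active or not.

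The sequences that stand before some of these genes differ in their content of CG dinucleotides. Shown are the 250 bases upstream of the RefSeq start (build GRCm38.p6, 5′ to 3′ on the gene's strand, every CG dinucleotide in capitals) of 5 members whose results are given further on. Kcnj3 and Kcns1 rose in differentiated ES cells, and Kcnj3 was above every adult array in both islet cell lines too. Kcna3 and Kcnmb4 rose in the islet cell lines, and Hcn4 was low in nearly all samples. The 5 windows lie at chr2:55435720-55435969 (+), chr2:164171114-164171363 (-), chr3:107035912-107036161 (+), chr10:116473524-116473773 (-) and chr9:58822699-58822948 (+), in this order.
Kcnj3: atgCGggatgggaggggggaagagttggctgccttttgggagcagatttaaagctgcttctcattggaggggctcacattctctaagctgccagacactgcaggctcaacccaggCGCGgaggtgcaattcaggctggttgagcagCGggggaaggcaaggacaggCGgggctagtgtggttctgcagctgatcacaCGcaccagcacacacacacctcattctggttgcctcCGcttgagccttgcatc
Kcns1: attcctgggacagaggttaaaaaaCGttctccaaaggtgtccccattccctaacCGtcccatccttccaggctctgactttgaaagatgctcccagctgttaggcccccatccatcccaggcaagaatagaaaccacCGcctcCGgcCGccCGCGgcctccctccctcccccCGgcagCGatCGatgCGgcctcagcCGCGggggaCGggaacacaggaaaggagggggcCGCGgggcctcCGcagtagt
Kcna3: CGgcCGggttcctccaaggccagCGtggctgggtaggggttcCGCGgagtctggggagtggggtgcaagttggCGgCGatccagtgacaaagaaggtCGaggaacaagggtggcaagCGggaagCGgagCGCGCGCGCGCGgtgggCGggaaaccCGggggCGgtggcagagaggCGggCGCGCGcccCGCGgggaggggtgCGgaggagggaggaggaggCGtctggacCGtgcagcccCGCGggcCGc
Kcnmb4: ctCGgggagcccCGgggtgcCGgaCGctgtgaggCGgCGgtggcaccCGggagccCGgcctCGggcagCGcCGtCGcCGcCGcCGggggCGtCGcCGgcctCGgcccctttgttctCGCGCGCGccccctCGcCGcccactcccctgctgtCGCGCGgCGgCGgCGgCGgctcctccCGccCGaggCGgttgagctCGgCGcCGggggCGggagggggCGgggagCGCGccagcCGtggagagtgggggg
Hcn4: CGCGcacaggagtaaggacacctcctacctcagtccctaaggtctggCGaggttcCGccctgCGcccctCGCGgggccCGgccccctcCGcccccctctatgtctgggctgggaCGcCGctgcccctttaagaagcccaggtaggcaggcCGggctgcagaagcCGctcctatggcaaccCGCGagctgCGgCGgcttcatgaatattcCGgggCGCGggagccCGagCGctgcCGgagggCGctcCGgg
The 5 windows hold 7, 17, 31, 43 and 25 CG dinucleotides, in the same order. Of the 77 ion channel genes with an island near a start, 39 have a single promoter in the RefSeq table, and their median was 17 CG in 250 bases. The median was 18 for the 4828 genes with an island near a start and a single promoter, and 6 for all 32851 promoters of the table. Genes whose island near the start rose in the islet cell lines had a median of 17.5 (n = 28) and the others 16 (n = 11). For differentiated ES cells the medians were 16 (n = 13) and 19.5 (n = 26). The array files name no genome build, so these windows were not laid over the probes, and the positions of islands below are those of the array files.

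Values are island methylation scores (IMS), the mean over an island's probes of the Z-score of the bound over input ratio. A score of 0 is the mean of all probes of an array, the unit is the SD of its probes, and a score below 0 on all adult arrays was called unmethylated and above 0.75 high. The study uses these numbers on Z-scores set by the melting temperature of the probe, a step not taken here, so that they are not the same limits. Scores are relative to the rest of the array. The array labelled J1 did not go with its label. Over all islands its scores correlated at r = 0.965 with the second pancreas array and 0.928 with the first, which correlated at 0.938 with each other, while EB5 and TT2 correlated at 0.881. The deposited processed values of that sample correlated with its scanner values at r = 0.113, against 0.894 to 0.991 on the other arrays. Counts of islands called by limma in undifferentiated ES cells are therefore given with and without it. The differences of single islands and the counts without overlap include it. The arrays were run on 23 slides and 16 scan days, and median input signal was 3.07 to 7.34 times the local background.

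In adult tissue the level of an ion channel island went with its position. By the array's annotation 82 of the 120 islands lie within 1000 bases of the start of a transcript and 38 lie farther away, mostly inside genes, a division made after the values had been seen and used as a description. The median score of the 82 near a start was between -0.25 and 0.02 on the 16 adult arrays, and between -0.32 and -0.21 for all 10447 islands near a start. The 38 farther islands had medians between 1.03 and 1.69, against 0.02 to 0.33 for all 3167 islands at such positions. On all 16 adult arrays the farther ion channel islands were above all farther islands by their median. An unmethylated score was found for 23 ion channel islands (19.2%), 20 of them near a start, and for 29.5% of all islands. A score above 0.75 on every adult array was found for 21 ion channel islands (17.5%), of which 3 lie near a start, and for 7.41% of all islands. Among the highest means were those of Hcn2 island 3 (3.51 ± 0.46, SD, n = 16) and Kcnv2 (3.37 ± 0.37). Hcn2 codes for a pacemaker channel of brain and heart and Kcnv2 for an electrically silent subunit of photoreceptors. The lowest mean was that of Kcnj3 (-0.89 ± 0.32), a G-protein-gated inward rectifier of heart and brain.

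**Figure D1:**
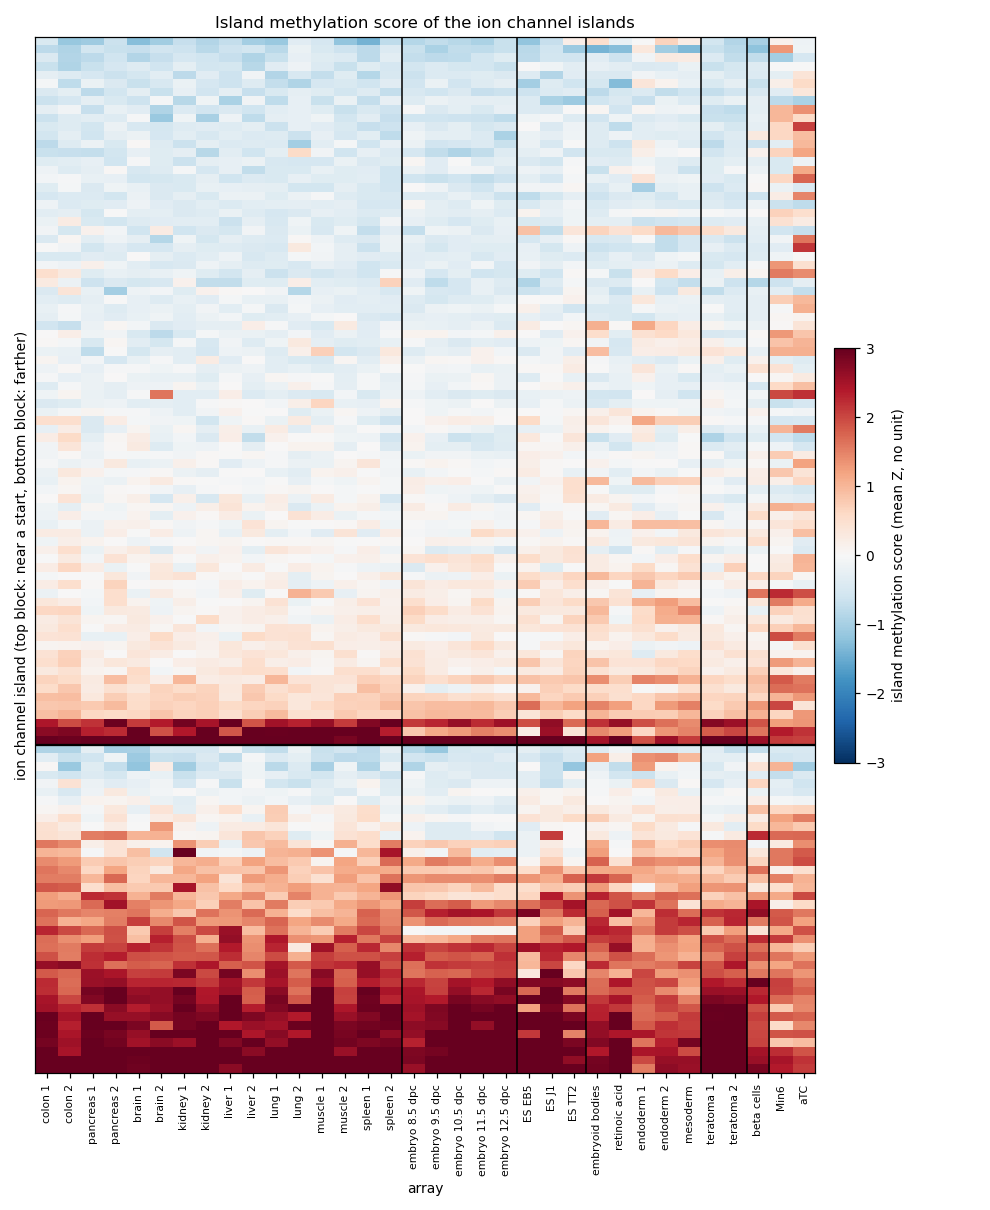
Score of each of the 120 ion channel islands (rows, those near a start above the horizontal line, ordered by adult mean) on each of the 34 arrays (columns, vertical lines between sample classes). Red is above 0 and blue below, and the colour scale ends at -3 and 3. Most rows near a start are pale or blue in adult tissue and embryos, apart from 3 that are red throughout adult tissue, and many turn red in Min6 and aTC, while most farther rows are red throughout.

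For brain and muscle, the tissues in which most of these channels act, no difference was detected. Neither was called against the other adult tissues at any of the 120 islands or at any of the 13620 (0% called, limma with an adjusted p under 0.05). With 2 arrays a tissue this does not show that they are alike. At an unadjusted p under 0.05 the counts were 6 ion channel islands for brain and 0 for muscle and 544 and 171 of all islands. Kcnip3, which codes for a calcium-binding partner of A-type potassium channels, had the largest difference in brain. It rests on 1 array, since the second brain array had a score of 1.61 and the first -0.04, with the other tissues between -0.45 and 0.20. Kcna2, a potassium channel of axons, had adult scores from -0.59 to 0.16 (median -0.33), and Hcn4, the channel of the sinoatrial node, from -0.78 to -0.25 (median -0.45).

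Differentiated ES cells and adult tissue differed at 35 ion channel islands (29.2%, limma over all islands, adjusted p under 0.05), with a higher score in the differentiated cells at 21 (17.5%) and a lower one at 14 (11.7%). Among all islands 23.1% differed, 14.4% higher and 8.73% lower, so that both shares were close to those of the background. The 2 directions divided by position. Of the 82 islands near a start 20 rose and 5 fell, and of the 38 farther islands 1 rose and 9 fell, whereas over all islands 12.4% rose and 7.17% fell near a start and 21.1% rose and 13.8% fell farther away. With scores standardised by the median and MAD 12 rose and 16 fell, with centred log2 ratios 12 and 15, with a normexp background 11 and 2, and with the deposited values 13 and 1. The falls away from starts numbered 0 with the normexp background and 0 with the deposited table. Many ion channel islands have no score in the deposited table and could not be called with it. Among them are Kcnj3, Kcns1 island 2, Cacna1i island 2, Kcnh2 island 1 and Kcnv2, named below. Without the second endoderm array 21 islands were called. All 5 differentiated arrays were above every adult array at 4 ion channel islands (2.51% of all islands were) and below every adult array at 1 (0.91%). With the slide as a block 30 islands were called, 22 of them among the 35, and with the scan day 27, of which 21 were among them. In the 2 pairs of arrays that shared a slide the median difference over all 120 ion channel islands was 0.09 (endoderm minus pancreas) and 0.07 (embryoid bodies minus brain), and -0.04 over all islands in both pairs.

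The island that rose most lies inside Kcnab3, which codes for an auxiliary β subunit of Kv channels (island 2, chromosome 11, 69148225 to 69148542, 4 probes, 5721 bases from an annotated start). On the 16 adult arrays it had scores from -1.09 to -0.06 with a median of -0.62. Embryoid bodies had 1.21, retinoic acid-treated cells 0.18, endoderm 1.36 and 1.43, and mesoderm 0.97. All 5 were above every adult array, every embryo (at most -0.34), the 3 undifferentiated arrays (at most -0.47) and both islet lines. The difference from adult tissue was 1.58 ± 0.15 (SE, adjusted p = 5.5e-09), and that from undifferentiated cells 1.58 ± 0.21 (adjusted p = 4.5e-05). On this island none of the 4 probes had an input well above background on every array.

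Next came 2 potassium channel islands near starts. Kcnj3 (chromosome 2, 55252582 to 55252858) had scores from -1.43 to -0.33 in adult tissue, 0.50 in embryoid bodies, -0.21 after retinoic acid, -0.01 and 0.66 in endoderm and 0.23 in mesoderm. All 5 lie above the adult range, by a difference of 1.13 ± 0.17 (adjusted p = 1.4e-05). Both islet lines were above the adult range of Kcnj3 too, with 0.12 in Min6 and -0.15 in aTC. Kcns1, a silent subunit that modifies delayed rectifiers, had an island at its start (island 2, chromosome 2, 163862293 to 163862628) with adult scores from -0.71 to 0.24. It had 0.67 in embryoid bodies, 0.43 after retinoic acid, 0.57 and 0.97 in endoderm and 0.81 in mesoderm, again without overlap (difference 1.00 ± 0.17, adjusted p = 5.3e-05). Here EB5 (0.89) and TT2 (0.36) and both teratomas (0.52 and 0.30) lie above the adult range too, and the array labelled J1 had -0.73. In the teratomas 2 of the 3 probes of this island, and 2 of the 3 of Kcnj3, had no bound signal well above background.

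The other islands that rose, by role, were these. Among pores of voltage-gated potassium channels Kcna6 rose by 0.77 ± 0.12 and Kcnf1, another silent subunit, by 0.68 ± 0.13. At both, the 2 islet lines were above every adult array too. Of the 41 islands of this role 8 rose and 5 fell. Among inward rectifiers Kcnj6, the partner of Kcnj3 in neurons, rose by 0.72 ± 0.16, and 2 of 9 rose and 1 fell. Of the two-pore channels, Kcnk4 island 2, at the start of a mechanically gated channel, had adult scores from -0.22 to 0.40. It had 0.99 in embryoid bodies, 0.93 on both endoderm arrays and 0.90 in mesoderm, while retinoic acid-treated cells at 0.25 lay within the adult range. Its difference was 0.79 ± 0.10, that of Kcnk15 island 1 was 0.67 ± 0.12, and 3 of 14 islands of this role rose and 0 fell. Among calcium channel pores Cacna1s, the voltage sensor of contraction in skeletal muscle, rose by 0.85 ± 0.14 and Cacna1i island 1, at the start of a T-type channel, by 0.68 ± 0.09. Cacng2 island 2, at the start of stargazin, which carries AMPA receptors to the synapse, rose by 0.63 ± 0.15. All of these had an adjusted p of at most 0.0024. Of the 5 islands of sodium channel pores 0 rose and 2 fell, of the 3 of sodium channel auxiliaries 1 rose, of the 7 pacemaker islands 1 rose and 1 fell, and of the 8 of potassium channel auxiliaries 2 rose. Of the 13 islands of calcium channel pores 2 rose and 1 fell, of the 13 of their auxiliaries 1 rose and 2 fell, and of the 7 of potassium channels gated by calcium or sodium 1 rose and 2 fell.

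Of the islands that fell, the largest change was that of Scn8a island 2 (chromosome 15, 100880679 to 100882465, 12 probes). The array names it after Scn8a, the sodium channel of the axon initial segment and nodes, and places it downstream of that gene, 17 bases from the start of a transcript. It had scores from 1.87 to 3.91 in adult tissue (median 2.88), 0.62 and 1.32 in endoderm, 1.25 after retinoic acid, 1.45 in embryoid bodies and 1.50 in mesoderm, all below every adult array (difference -1.70 ± 0.32, adjusted p = 2.4e-04). Kcnv2, whose adult scores ran from 2.86 to 4.06, had 1.90 to 2.57 in 4 arrays and 3.63 after retinoic acid (difference -0.83 ± 0.20). Most of the remaining falls were in islands inside genes with high adult scores, such as Cacna1i island 2 (-0.93 ± 0.25), Hcn2 island 3 (-0.82 ± 0.26) and Kcnh2 island 1 (-0.78 ± 0.28), the last in the gene of a cardiac repolarising channel. Their differentiated scores of 1.02 to 3.77 are still above 0.75. At a start, Cacnb4, an auxiliary subunit of calcium channels, and Kcnn2, a small-conductance calcium-activated channel, fell from low adult means of 0.24 and -0.30 (differences -0.27 ± 0.08 and -0.30 ± 0.10), and Kcng1 island 2 fell from 2.47 (-0.51 ± 0.19). Of the 28 genes with more than 1 island, 3 had an island that rose and another that fell. These were Cacna1i, Cacng2 and Hcn2, each with the rise at the start and the fall inside. Such genes were not counted among the other genes of the array.

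**Figure D2:**
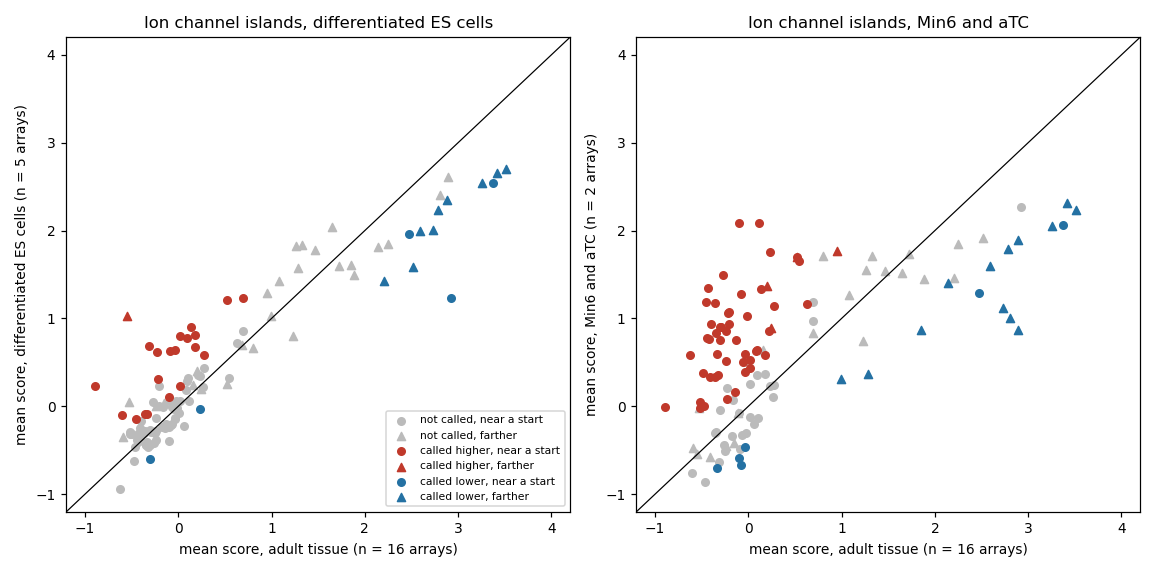
Mean score of each ion channel island in differentiated ES cells (left) and in Min6 and aTC (right) against its mean in adult tissue, with circles for islands near a start and triangles for farther ones, and the line of equal scores. Red and blue mark islands past an adjusted p of 0.05, and in both panels the red circles lie at adult scores below 0.75 and most blue triangles at adult scores above 1.

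The 5 differentiated arrays were not alike. Retinoic acid-treated cells had 28 ion channel islands above 0.75, within the adult range of 25 to 34, and embryoid bodies, the 2 endoderm arrays and mesoderm had 43, 39, 37 and 37. Near starts the counts were 5 after retinoic acid and 11 to 15 on the other 4, against 3 to 7 on adult arrays. No such count was made over all islands near a start. The share of all islands above 0.75 was 12.4% to 16.7% on the 5 differentiated arrays and 10.1% to 14.6% on the adult arrays. Whether the change on differentiation differed between EB5 and TT2 was tested over all islands with limma, and 0 of 120 and 0 of 13620 passed an adjusted p of 0.05 (11 and 420 at an unadjusted p under 0.05). The test counted the retinoic acid-treated cells as TT2, as the label has it, and parent line and method of differentiation cannot be told apart.

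Undifferentiated ES cells differed from adult tissue at 4 ion channel islands with the array labelled J1 (3.33%, against 2.33% of all islands), with 2 higher (1.67%, against 1.01%) and 2 lower (1.67%, against 1.32%). Without it 15 were called (12.5%, against 8.49% of all islands), 8 higher (6.67%, against 4.62%) and 7 lower (5.83%, against 3.87%). All 3 arrays were above every adult array at 4 ion channel islands (0.609% of all islands were) and below at 0 (0.0881%). Without EB5 or without TT2 the count was 0, and with the slide as a block 4 other islands were called and none of the first 4. Kcnip1 island 2, at the start of another calcium-binding partner of A-type channels, had adult scores from 0.34 to 0.95, 1.68 in EB5, 1.21 in TT2 and 0.99 in the array labelled J1. Its difference was 0.59 ± 0.13 (adjusted p = 0.017). Cacna1i island 1 was higher by 0.43 ± 0.11 (adjusted p = 0.04). Scn8a island 2 fell by 1.86 ± 0.40 on the score scale (adjusted p = 0.013), with 0.23 in EB5 and 0.39 in TT2 but 2.57 in the array labelled J1, a level within the adult range. Kcng4, a silent subunit, had 0.99, 0.62 and 2.01 on the same arrays and 1.66 to 2.71 in adult tissue, and was the other island that fell. Kcnh2 island 1 had 0.32 in EB5, 0.82 in TT2 and 3.08 in the array labelled J1, against 1.41 to 2.87 in adult tissue.

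Differentiated and undifferentiated ES cells differed at 10 islands (8.33%, against 5.49% of all islands). Of these 4 were higher (3.33%, against 3.51%) and 6 lower (5.00%, against 1.98%) after differentiation. Without the array labelled J1, 7 were called (5.83%, against 3.55% of all islands), 5 of them among the 10. Without retinoic acid-treated cells 20 were called, without EB5 6, and with the median and MAD or with centred log2 ratios 2, both higher. Beside Kcnab3 island 2, those that rose were Kcnk4 island 2 (0.70 ± 0.14), Kcnj9, a further G-protein-gated rectifier (1.02 ± 0.26), and Cacna1b island 1, inside the gene of the N-type calcium channel (0.80 ± 0.24). Kcnj4 island 1, Kcnv2 and Kcnj12 were among those that fell, with differences of -1.25, -1.24 and -0.97.

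Embryos differed from adult tissue at 8 ion channel islands (6.67%, against 8.61% of all islands), 2 higher (1.67%, against 5.15%) and 6 lower (5.00%, against 3.47%). All 5 embryos were above every adult array at 1 (1.31% of all islands were) and below at 5 (1.29%). The clearest was Kcnk4 island 1, inside the gene (chromosome 19, 6992919 to 6993409). The embryos had 0.01, -0.07, -0.06, 0.08 and 0.10 from 8.5 to 12.5 dpc, whereas the adult arrays had 0.77 to 2.59 and the differentiated ES cells 1.55 to 2.39. The embryos lie below both groups without overlap, and the difference from adult tissue was -1.64 ± 0.23 (adjusted p = 2.6e-05). Scn8a island 2 had 0.81 to 1.50 in embryos (difference -1.70 ± 0.32, adjusted p = 0.001). The difference of Kcnk3 island 2, in the gene of an acid-sensitive leak channel, was -0.74 ± 0.21. Kcna7, a channel of muscle, was higher by 0.31 ± 0.09. With the slide, the scan day or the software version as a block 0 ion channel islands were called by limma (10, 3 and 6 at an unadjusted p under 0.05), with 3, 0 and 7 of all islands. Without the embryo of 9.5 dpc, and without that of 11.5 dpc, 5 were called.

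Against the embryos, differentiated ES cells differed at 22 ion channel islands (18.3%, against 21% of all islands), 14 higher (11.7%, against 11.8%) and 8 lower (6.67%, against 9.27%). All 5 differentiated arrays were above every embryo at 13 (8.67% of all islands were) and below at 2 (5.65%). These comparisons share arrays with those above. Kcnk4 island 1 was higher by 2.03 ± 0.28 (adjusted p = 5.7e-06), Kcnab3 island 2 by 1.54 ± 0.18, Kcnk3 island 2 by 1.31 ± 0.26 and Kcnj3 by 1.04 ± 0.21. Kcng1 island 1, Cacna1i island 2 and Kcnv2 were lower, with differences of -0.93, -0.86 and -0.80. With the median and MAD 10 rose and 1 fell, with centred log2 ratios 12 and 16, and without retinoic acid-treated cells 39 were called. With the slide as a block 2 were called, with the scan day 4 and with the software version 0, and the directions of Kcng1 island 1 and Kcnv2 turned with the slide and the software version.

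Teratomas differed from adult tissue at 0 of 120 ion channel islands and at 43 of all islands (0.316%, with 0.272% higher and 0.0441% lower) by limma. Both teratomas were above every adult array at 2 ion channel islands, among them Kcns1 island 2 (1.78% of all islands were), and below at 0 (1.28%). At an unadjusted p under 0.05 there were 7 and 1179, and the methods' t-test gave 0 ion channel islands. Kcnab3 island 2 had -0.29 and -0.30 in the 2 teratomas and Kcnj3 -0.56 and -0.87, within the adult range, with the limit on bound signal given above. With 2 arrays small differences were not detectable.

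**Figure D3:**
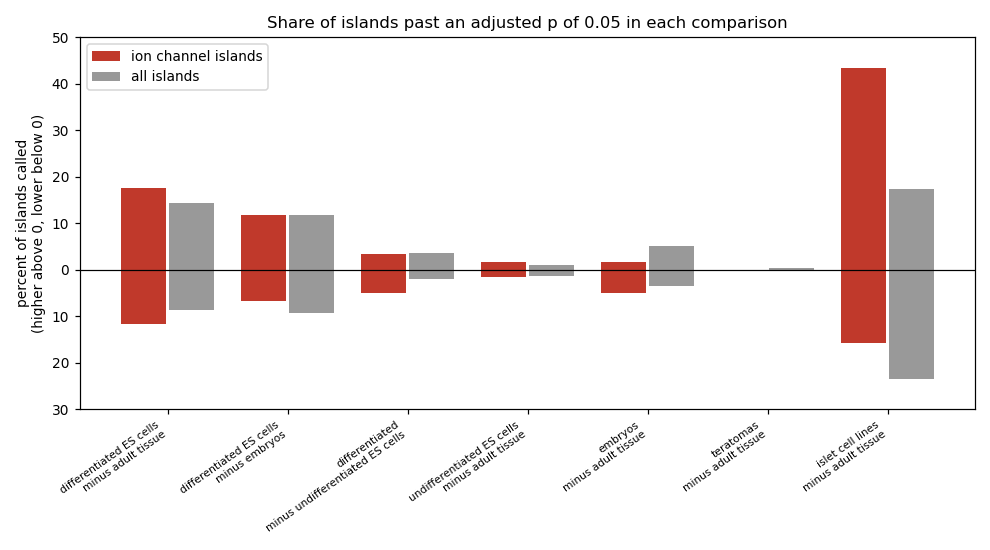
Percent of the 120 ion channel islands (red) and of all 13620 islands (grey) past an adjusted p of 0.05 in each comparison, higher in the first group above 0 and lower below 0. Only for the islet cell lines does the red bar above 0, 43.3%, stand far from the grey, 17.3%.

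The islet cell lines Min6 and aTC differed from adult tissue at 71 ion channel islands (59.2%), against 41% of all islands. The directions were unlike those of the background, with 52 higher (43.3%, against 17.3%) and 19 lower (15.8%, against 23.6%). The median difference was 0.28 for ion channel islands and -0.21 for all islands, and with centred log2 ratios, where the median of all islands was -0.32, it was 0.80. Near starts 48 of 82 rose and 6 fell, against 15.8% and 23.6% of all islands near a start. Farther away 4 of 38 rose and 13 fell, against 22.5% and 23.7%. Both lines were above every adult array at 38 ion channel islands (12.3% of all islands were) and below every adult array at 16 (20.1%). With the median and MAD 35 rose and 9 fell, with centred log2 ratios 60 and 8, with the deposited values 32 and 9, and without aTC 42 islands were called in all. Falls away from starts numbered 3 with centred log2 ratios and 3 with the deposited table. Kcnj12, Kcng1 island 1 and Kcnv2, named below, have no score in the deposited table. No slide, scan day or software version held both an islet line and an adult array, so that these and the cell type cannot be told apart in this comparison. The purified β cells were scanned on the same day, and the median difference of Min6 from them was 0.08 over the 120 ion channel islands and -0.15 over all islands, and that of aTC 0.24 and -0.21, with 1 array a side and no test.

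**Figure D4:**
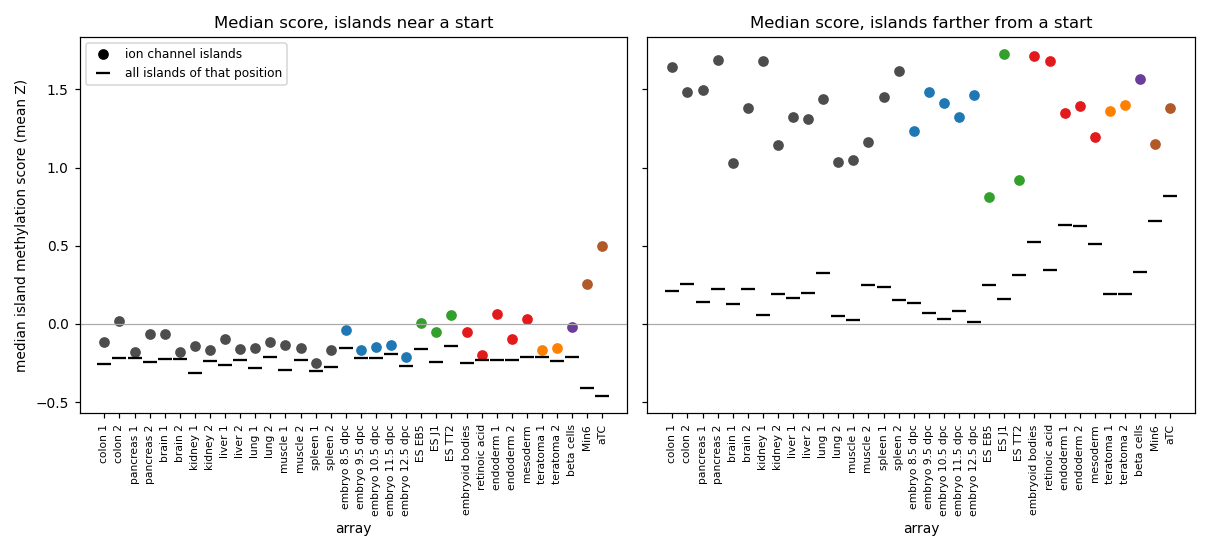
Median score on each array of the ion channel islands (dots, coloured by sample class) and of all islands (dashes) near a start (left) and farther away (right). Near a start the medians of Min6 and aTC, 0.255 and 0.498, lie above those of all other arrays, while the medians of all islands on these 2 arrays, -0.411 and -0.464, are the lowest.

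The largest rises were at starts of potassium channel genes. Kcnip3 (chromosome 2, 127173439 to 127174087) had 1.99 in Min6 and 2.18 in aTC, against -0.09 in β cells and -0.45 to 1.61 in adult tissue (median -0.24), a difference of 2.19 ± 0.33 (adjusted p = 3.8e-05). Kcnh6 island 2, at the start of an erg channel (chromosome 11, 105836436 to 105836943), had 2.25 and 1.92 and adult scores from -0.37 to 1.04 (difference 1.97 ± 0.26, adjusted p = 7.8e-06). It was also high in β cells, at 1.62, above every adult array. Kcnq5, a channel of the M current, had 0.63 in Min6 and 2.06 in aTC, against -0.26 in β cells and -0.68 to -0.19 in adult tissue (difference 1.78 ± 0.21). Kcnk9, an acid-sensitive leak channel, had 1.57 and 1.42, against 0.07 in β cells and -0.65 to 0.52 in adult tissue (difference 1.76 ± 0.22). Neither of the 2 lines overlapped with adult tissue at any of these 4 islands.

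By role, 22 of 41 islands of voltage-gated potassium pores rose and 5 fell, 5 of 9 inward rectifiers rose and 2 fell, 7 of 14 two-pore channels rose and 0 fell, 4 of 8 potassium auxiliaries rose and 1 fell, and of the 7 channels gated by calcium or sodium 1 rose and 1 fell. Of the calcium channel pores 4 of 13 rose and 3 fell, and of their auxiliaries 6 of 13 rose and 4 fell. Of the 5 islands of sodium pores 2 rose and 1 fell, of the 3 of sodium auxiliaries 0 changed, and of the 7 pacemaker islands 1 rose and 2 fell. Examples are Kcnc1, a fast neuronal delayed rectifier (0.87 ± 0.15), Kcna2 (1.19 ± 0.17), Scn8a island 1 (1.17 ± 0.19) and Hcn4 (0.48 ± 0.16). The array places Scn8a island 1 downstream of that gene, 6932 bases from the start of a transcript. At Hcn4 Min6 had -0.33 and only aTC, at 0.34, exceeded the adult range. The islands of Kcnma1, the large-conductance calcium-activated channel, did not pass the test, with -0.62 and -0.26 on island 1 and 0.10 and 0.11 on island 2.

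Among the islands that fell, Cacna1h island 1, inside the gene of a T-type calcium channel (chromosome 17, 25113218 to 25113573), had 0.81 in Min6 and 0.93 in aTC. It had 2.02 in β cells and 2.53 to 3.44 in adult tissue, and the difference was -2.02 ± 0.19 (adjusted p = 1.1e-07). Kcnj12, an inward rectifier of muscle, had 0.58 and 1.44, against 1.97 in β cells and 1.85 to 3.47 in adult tissue (difference -1.80 ± 0.29). Kcng1 island 1 and Kcnv2 fell too, with differences of -1.61 and -1.30. In 6 genes, among them Cacna1a, Cacna1h, Cacna2d2, Cacng2 and Kcnj4, one island rose and another fell, out of 28 genes with more than 1 island. In each of them an island at the start was among those that rose, and those that fell lie inside the gene. Here too the other genes of the array were not counted.

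**Figure D5:**
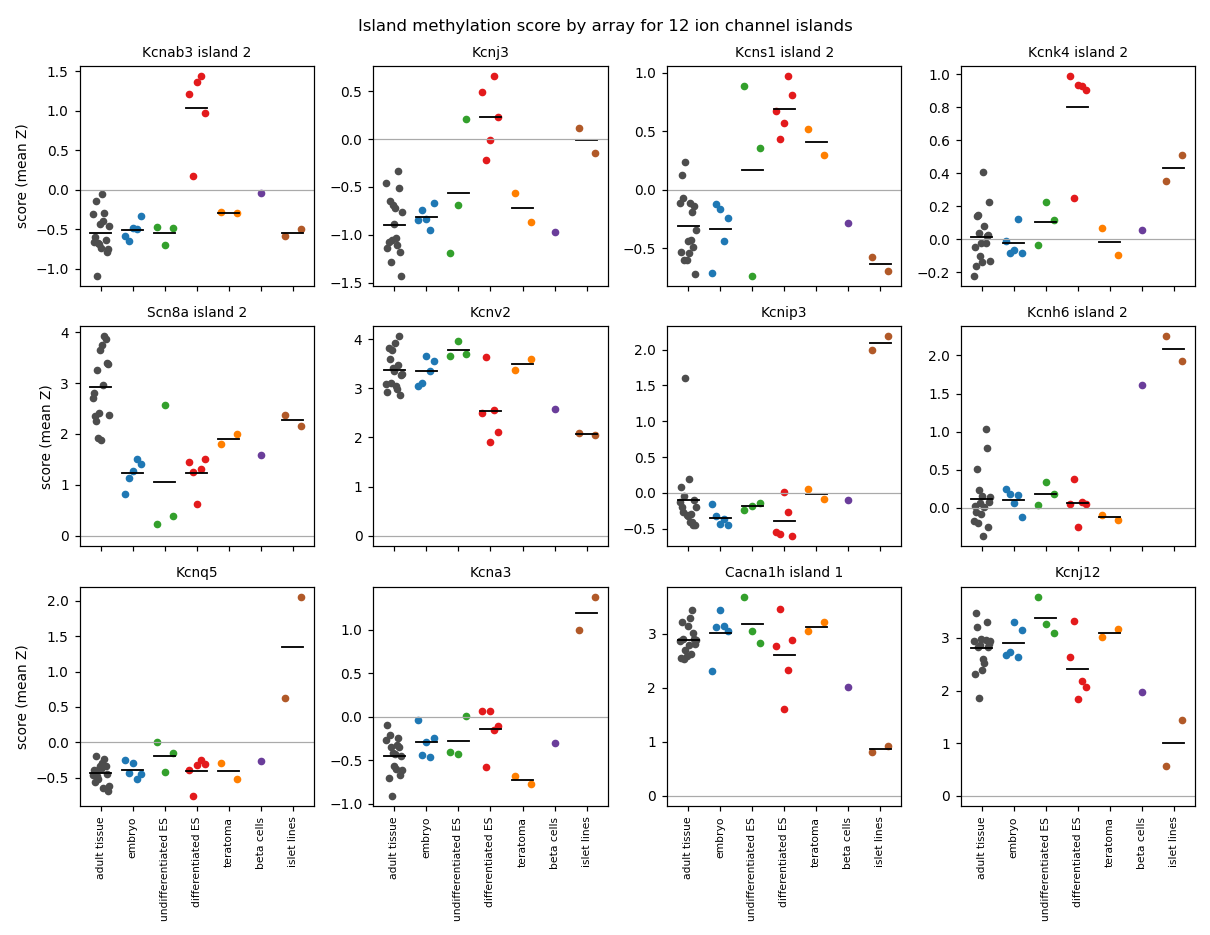
Score of 12 ion channel islands on each array, by sample class, with the mean of each class of 2 or more arrays as a line. The top row shows islands that rose in differentiated ES cells, Scn8a island 2 and Kcnv2 fell there, the next 4 panels from Kcnip3 to Kcna3 rose in Min6 and aTC, and the last 2 fell in them.

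Of the 23 ion channel islands that were unmethylated in adult tissue, 1 exceeded 0.75 on at least 1 differentiated ES array (Kcnab3 island 2), against 2.92% of all 4012 unmethylated islands. On the 2 islet line arrays 9 did, against 8.1% of all. They are Kcnq5, Kcna3, Kcnc2 island 2, Kcnc4, Cacna1b island 2, Cacnb1 island 1, Kcnj4 island 2, Kcnmb4 and Kcna1 island 2. None of the 23 did so in embryos, undifferentiated ES cells, teratomas or β cells, where 0.15%, 0.374%, 0.15% and 0.0997% of all unmethylated islands did. Kcnq5 had the highest mean over the lines, and of the next 4 Kcna3, a channel of T cells and neurons, had 0.99 in Min6 and 1.38 in aTC, Kcnc2 island 2 0.61 and 1.75, Kcnc4 0.74 and 0.97, and Cacna1b island 2 0.21 and 1.46. In adult tissue the highest score of any of these was -0.02. The lines differed from each other at Kcna1 island 2, with 1.29 in Min6 and -0.12 in aTC. Without aTC the count was 3, and with unmethylated islands taken as those below -0.25 on every adult array it was 0. Of the 23 islands only Kcnj3 and Scn3b meet that limit, so that none of the 9 was left to be counted. In differentiated ES cells the next after Kcnab3 island 2 and Kcnj3 were Kcnc2 island 2, Kcnk12 island 2 and Scn3b, whose means over the 5 arrays were -0.08, -0.09 and -0.10.

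Other channels and channel partners were compared from a list of 60 genes, of which 34 had a scored island (38 islands). Between differentiated ES cells and adult tissue 9 of the 38 rose and 4 fell, where 14.4% and 8.73% of all islands did. Between the islet lines and adult tissue 9 rose and 7 fell, where 17.3% and 23.6% of all islands did. The median differences over the 38 islands were 0.02 and -0.13, against -0.01 and -0.21 over all islands. In the lines the rises included Rest (1.75 ± 0.15, adjusted p = 3.3e-08), which codes for a repressor of neuronal genes in other tissues, with 1.28 in Min6 and 1.90 in aTC. They also included Dpp6, an auxiliary subunit of A-type channels (1.86 ± 0.35), and Fgf11, an intracellular partner of sodium channels (1.88 ± 0.19). In differentiated ES cells Dpp6 rose by 1.12 ± 0.25, Scnn1b, a subunit of the epithelial sodium channel, by 1.23 ± 0.14 and the island at the start of Rem1, which codes for an inhibitor of calcium channels, by 1.86 ± 0.14.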

How the data were processed

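The authors hybridised mDIP-bound and input DNA to 2-colour CpG island arrays, one array a sample (34), and deposited scanner output from Feature Extraction. It holds the log10 ratio of Cy5 (bound) to Cy3 (input) of every probe, background-subtracted and dye-normalised by the authors. The deposited intensity values, medians of each spot and its local background, served for the normexp alternative. The authors also deposited a table in which each value is a standardised score of the probe on its array (mean 0 and SD 1), set by the melting temperature of the probe per the methods, and used here as an alternative. The genome build is not given in the sources used here. Here the log10 ratios of 97209 probes were turned to Z-scores on each array, probes at most 500 bases apart were joined, and islands of at least 3 probes were scored by their mean. Scores were compared with limma 3.58.1 (lmFit and eBayes, R 4.3.3) over all 13620 islands with Benjamini-Hochberg adjustment. In the class comparisons every array counted as independent, also the 2 arrays of a tissue. Min6 and aTC, and the different kinds of differentiated ES cells, stood as replicates of their class. The SE and p-values do not allow for the tissue pairs, and they describe the class, not a single line or treatment. The ES cell classes, embryos and adult tissue shared one fit, and teratomas and islet lines were each fitted with adult tissue alone. The methods' t-test was an alternative. Named islands were, with 1 island a gene, the 10 most raised and 5 most lowered of those called in differentiated ES cells against adult tissue, the 4 most raised and 4 most lowered in each other comparison, the 5 unmethylated islands with the highest means over the differentiated arrays and over the lines, and a fixed list of genes. Others were named after their values were seen, and some islands that the rule names are not reported here. Members, lists and tests were chosen with earlier results of these data known. The number of arrays limits the precision. The fit was tested on simulated data. Tables and figures were made with Python 3.11.15, numpy 2.4.6, pandas 2.3.3 and matplotlib 3.10.9.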

Additional observations from a re-analysis of the deposited data

Results flagged for a closer look

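In groups of 4 to 10 arrays, 6 of 98 island and group pairs held an array that stood far from the others by Dixon's test, and chance alone flags about 1 in 20. Among differentiated ES cells, retinoic acid-treated cells stood apart at Kcnk4 island 2, with 0.248 against 0.902 to 0.987 on the other arrays, and at Kcnk15 island 1, with -0.123 against 0.685 to 0.966. The first endoderm array stood apart at Scn8a island 2 (0.621 against 1.25 to 1.50), Kcnc2 island 2 (0.420 against -0.336 to -0.118) and Kcnma1 island 2 (-0.376 against 0.290 to 0.534). Among embryos, that of 8.5 dpc had 1.66 at Kcng4 against 2.04 to 2.16.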

How the results depend on the processing

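Counts of ion channel islands called follow for the alternatives that moved them. With the deposited table, bright probes only or at least 5 probes, some islands have no score and could not be called. For differentiated ES cells against adult tissue the count of 35 became 14 with the deposited table, 13 with the normexp background, 17 with bright probes only, 19 with at least 5 probes and 20 at an adjusted p under 0.01, and 21 to 42 with single arrays left out. For undifferentiated ES cells against adult tissue the count of 4 became 0 with the median and MAD, centred log2 ratios, the normexp background, the methods' t-test, the scan day as a block and an adjusted p under 0.01, 1 with only the 2 classes in the fit or the software version as a block, and 20 with the deposited table, and 0 to 15 with single arrays left out. For embryos the count of 8 became 2 with normexp, 0 with the slide, scan day or software version as a fixed block, 4 with the slide as a random block and 5 at an adjusted p under 0.01, and 5 to 9 with single arrays left out. For differentiated against undifferentiated cells the count of 10 became 2 with the median and MAD, centred log2 ratios or the slide as a block, 20 with the deposited table, 1 with normexp, 6 with bright probes, 5 with at least 5 probes, 0 with the t-test or only the 2 classes, and 3 at an adjusted p under 0.01, and 6 to 20 with single arrays left out. Both counts of 20 with the deposited table include the deposited values of the sample labelled J1. Those values correlated at only 0.106 to 0.247 with the deposited values of the other arrays. For differentiated cells against embryos the count of 22 became 11 with the median and MAD or the deposited table, 8 with normexp, 10 with bright probes, 12 with at least 5 probes, 2, 4 and 0 with slide, scan day and software version as blocks, and 18 to 39 with single arrays left out. For the islet lines the count of 71 became 44 with the median and MAD and 41 with the deposited table, and 42 to 58 with 1 line left out. For teratomas the count of 0 became 2 with normexp and stayed 0 to 0 with 1 array left out, and for brain it was 0 to 1 (1 without the first brain array). The 1 unmethylated island above 0.75 in differentiated ES cells became 2 above 0.5 or with the median of the probes, 3 with a limit of 0.25 for unmethylated islands, and 0 with a limit of -0.25, the deposited table, normexp, bright probes or at least 5 probes. That island, Kcnab3 island 2, has 4 probes, 0 of them bright on every array, no score in the deposited table and a highest adult score of -0.06. With a limit of -0.25, the deposited table, bright probes or at least 5 probes it could therefore not be counted at all. The 9 in the islet lines became 0 with a limit of -0.25, which none of the 9 meets in adult tissue. They became 18 with 0.25, and 5 with the deposited table or bright probes, and 3 to 7 with 1 line left out. Of the 9, Kcnc2 island 2, Kcnj4 island 2 and Kcnmb4 have no score in the deposited table. Against embryos, Kcng1 island 1 turned to 0.37 with the slide as a block and Kcnv2 to 0.12 with the software version as a block. The cause was not tested. Other counts were within 1.5 times, which does not say that the islands were the same: for undifferentiated ES cells with the slide as a fixed block the 4 called share 0 with the first 4. Replicate numbers did not pair the arrays, since deviations of same-numbered tissues correlated at -0.253 to 0.629 over 28 pairs, and with a replicate block the counts for brain, muscle and teratomas were 0. Blocks that could not be estimated, such as those for the islet lines, were not run, nor were the unmethylated counts on the scales on which 0.75 has another meaning. Where bound signal was not well above background the score is a bound. In teratomas this held for 2 of 3 probes of Kcnj3 and of Kcns1 island 2 and 6 of 11 of Kcna2, and in embryos for up to 7 of 17, in Kcnc4. It held on both islet lines for 2 of 6 probes of Kcnip3 and 5 of 18 of Kcnc1, for example. In β cells it held for 2 of 6 of Kcnip3 and 6 of 17 of Kcnc4, among others.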
